A study of Mus musculus with 14 samples.

Results

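The tumour necrosis factor (TNF) superfamily in this series comprised 32 of the 24421 genes of the deposited count tables: Tnf itself and every gene whose symbol begins with Tnfsf or Tnfrsf followed by a number. Of these, 12 encode ligands and 20 encode receptors. The rule that chose the genes used symbols alone, but it was set with earlier results of these data known. They were followed through 12 bulk polyA RNA-seq libraries of mouse gastric tumours, made from pieces of about 1 cm3 taken 2 months after transplantation and read as 150 bp pairs on an Illumina NovaSeq. There were 4 groups of 3 libraries. Tumours named TM, TMP and TMPC had grown under the skin, and a further TMPC group was orthotopic. TM, TMP and TMPC are names the labels do not spell out, and for the host mice the sources used here give no strain, sex or age. The labels number the libraries as replicates without tying each to its own animal, and the p-values below therefore rest on a spread between libraries that may be technical.

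Ligands of the family are mostly trimeric membrane proteins that can be shed, and their receptors signal by clustering. Receptors with a cytoplasmic death domain (Tnfrsf1a, Tnfrsf10b, Tnfrsf21, Tnfrsf25) recruit adaptors that can start caspase cleavage, and most others bind TRAF adaptors that lead to NF-kB and MAP kinase signalling. Decoy receptors (Tnfrsf11b, Tnfrsf22, Tnfrsf23) bind ligand without a signalling tail of this kind. In tumours, macrophages, lymphocytes, dendritic cells, stroma and the epithelium each make different members, so the family is often read as a picture of the conversation between a tumour and its host.

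The genes are clustered in the mouse genome (mm10, GENCODE vM21). Chromosome 4 carried 9 of the 32, among them the neighbours Tnfrsf1b and Tnfrsf8, Tnfrsf18 and Tnfrsf4, and Tnfsf15 and Tnfsf8. Chromosome 7 held Tnfrsf22, Tnfrsf23 and Tnfrsf26 side by side, and Tnfsf4 and Tnfsf18 were neighbours on chromosome 1. Tnf lay at chr17:35199381-35202007 on the minus strand. Some counts were not unique to 1 gene. Tnfrsf22 and Tnfrsf23 shared 719 of their exonic 50-base words (17.3% and 18% of each), and the readthrough gene Tnfsfm13 shared 46.8% of those of Tnfsf12 and 57.3% of those of Tnfsf13. Tnfrsf18, Tnfrsf23, Tnfrsf26, Tnfsf9 and Tnfsf13 overlap exons of a gene on the opposite strand, and whether counting used strand is not stated in those sources. The values of these genes, and of Tnfrsf22 and Tnfsf12, are uncertain to that extent.

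Promoters from RefSeq (GRCm38.p6, 300 bases around a transcription start) were available for 25 of the 32 genes, at 29 starts. Each was searched on both strands for 4 motifs: the NF-kB motif kappaB, the AP-1 motif TGANTCA, the interferon-gamma activated site GAS as TTCNNNGAA, and the interferon-stimulated response element ISRE as GAAA, 2 further bases and GAAA. Of all 32851 RefSeq promoters of that length, 8.46% held kappaB, 7.81% AP-1, 8.3% GAS and 3.44% ISRE. Among the family, kappaB was found in 3 genes (Tnfrsf8, Tnfrsf9 and Tnfrsf25) and AP-1 in 5. GAS was found in 6 (Tnfrsf1a, Tnfrsf1b, Tnfrsf9, Tnfrsf18, Tnfrsf19 and Tnfrsf25) and ISRE in 4 (Tnfrsf14, Tnfrsf17, Tnfrsf1b and Tnfsf13b). Counted by start, as those shares are, kappaB was in 3, AP-1 in 6, GAS in 6 and ISRE in 4 of the 29. The 4 stretches below are shown because they belong to members whose levels differed between groups and carry these motifs; capitals mark the kappaB, GAS or ISRE match, read 5′ to 3′ on the gene's strand.
Tnfrsf1b, chr4:145246871-145247070, minus strand, GAS then ISRE: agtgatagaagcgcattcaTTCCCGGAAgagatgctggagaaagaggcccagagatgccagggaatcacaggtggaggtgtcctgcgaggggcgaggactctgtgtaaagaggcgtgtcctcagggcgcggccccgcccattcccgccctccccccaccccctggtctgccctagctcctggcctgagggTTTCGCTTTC
Tnfrsf14, chr4:154928122-154928151, minus strand, ISRE: ctattttttcTTTCATTTTCacttttcctt
Tnfsf13b, chr8:10006607-10006635, plus strand, ISRE: tacaaaaactGAAAGTGAAAtgcggaagg
Tnfrsf9, chr4:150927946-150927975, plus strand, overlapping kappaB matches: cagagcagctGGGGATTTCCCaggaggccc
A match describes the letters in these windows and does not show that a factor binds there. The windows of Tnf, Tnfrsf11a, Tnfrsf12a, Tnfrsf13b, Tnfrsf21, Tnfsf8 and Tnfsf10, whose values follow, held none of the 4 sets of letters. For Tnfrsf9 and Tnfsf13b the stretch comes from 1 of 2 listed starts.

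Libraries held between 16584781 and 21107310 counts, and 3 counts amounted to 0.142 to 0.181 CPM, the count scaled to a common library size. Gastric epithelial markers (11 genes such as Gkn1 and Tff2, which encode secreted stomach peptides) summed to between 3890 and 6650 CPM in orthotopic tumours but to at most 28.8 CPM in any subcutaneous library. In subcutaneous TMP and TMPC tumours Gkn2, Pgc and Cldn18 had 0 counts in all 3 libraries of both groups. TM replicate 2 stood apart from its group: its mean correlation with the other TM libraries was 0.776, against 0.88 and 0.874 for theirs. There, general epithelial markers summed to 244 CPM against 4000 and 4310, B and plasma cell markers to 2920 against 14.9 and 15.5, T cell markers to 282 against 11.7 and 18.1, and adipocyte markers to 6070 against 17.4 and 19.9. Orthotopic replicate 3 also stood apart (mean correlation 0.871, against 0.922 and 0.925), with liver markers at 7910 CPM against 53.2 and 47 and neutrophil markers at 842 against 29.5 and 29.3. Both libraries were kept, and the calls below are also given without them.

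**Figure D1:**
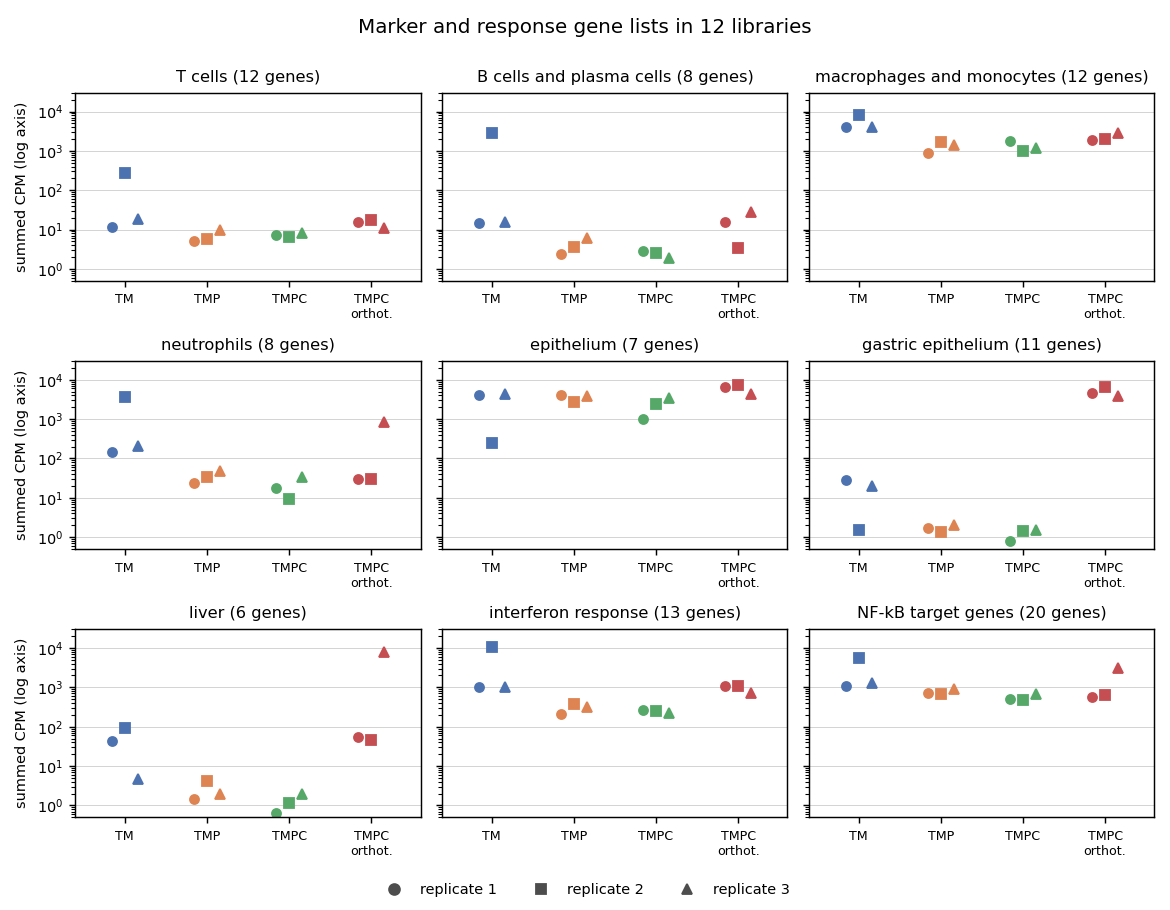
Summed CPM (log axis) of 9 gene lists in each of the 12 libraries, grouped as TM, TMP and TMPC (subcutaneous) and orthotopic TMPC, with a symbol per replicate. TM replicate 2 (blue square) is far above its group in the T cell, B cell and neutrophil lists and far below it in the epithelial list, and orthotopic replicate 3 (red triangle) is far above its group in the liver and neutrophil lists.

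Levels of different members were compared as CPM per kilobase of exon. Tnfrsf12a, the receptor of the ligand TWEAK (Tnfsf12), was the most abundant member in TMP (79.2 ± 21.7, SD, n = 3), TMPC (57.9 ± 14.3) and orthotopic TMPC tumours (74.3 ± 31.2). In TM tumours Tnfrsf1a, the broadly expressed TNF receptor, had the highest mean, 72.8 ± 48.4, followed by Tnfrsf1b at 41.8 ± 30.5. Both means rested on TM replicate 2: Tnfrsf1a held 41.2, 129 and 48.7 by library and Tnfrsf1b 25.9, 76.9 and 22.5. In replicates 1 and 3 Tnfrsf1b was below Tnfrsf11b (36.3 and 39), Tnfrsf21 (39.4 and 32.5) and Tnfrsf12a (30.8 and 38.4). Tnfrsf1a came after Tnfrsf12a in TMP (32.4 ± 3.04), TMPC (37.4 ± 12) and orthotopic tumours (47.8 ± 11), and the libraries of the 2 receptors overlapped in TMPC and orthotopic tumours but not in TMP. Tnfrsf21, a death-domain receptor also called DR6, held 34.9 ± 3.85 in TM, 17.5 ± 1.19 in TMP, 17.6 ± 7.19 in TMPC and 30.2 ± 8 in orthotopic tumours. Among the ligands Tnfsf10 (TRAIL) had the highest mean over all libraries, 8.02, and lay between 1.54 ± 1.01 in TMPC and 19.3 ± 21.2 in TM. Its TM mean also rested on replicate 2, with 7.01, 43.7 and 7.15 by library. In TM replicates 1 and 3 Tnf was higher (8.8 and 9.42). In TMPC the means of Tnfsf9 (1.91 ± 0.519) and Tnf (1.81 ± 1.16) were above that of Tnfsf10. At the low end Tnfrsf17, a receptor of plasma cells, had 0 counts in 6 libraries, and 54 of its 61 counts came from TM replicate 2.

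**Figure D2:**
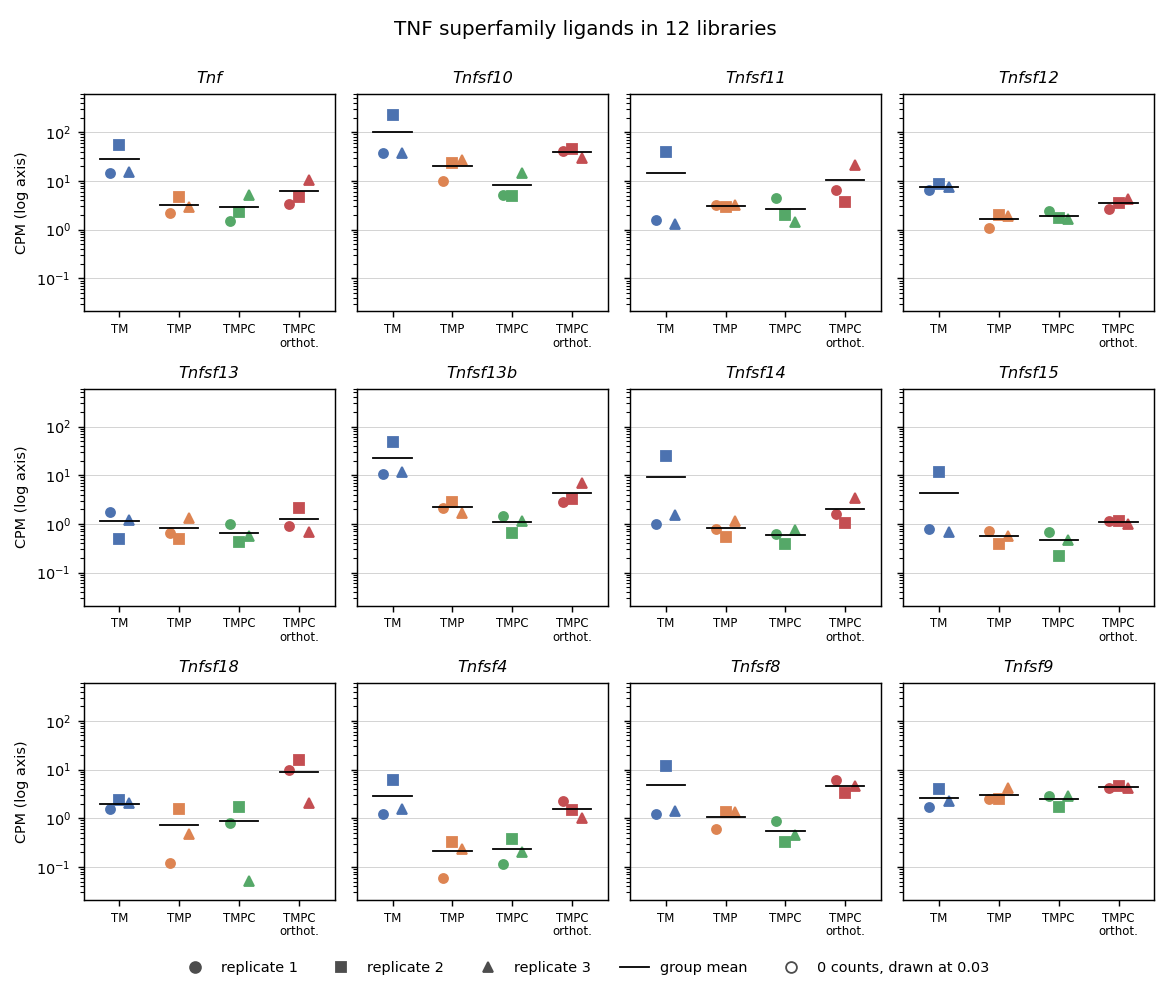
CPM (log axis) of the 12 ligands in each of the 12 libraries, with a symbol per replicate and a bar at the group mean. Tnf, Tnfsf12, Tnfsf13b and Tnfsf4 are lower in all TMP and TMPC libraries than in any TM library, and Tnfsf4 and Tnfsf8 are higher in all orthotopic than in any subcutaneous TMPC library.

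Subcutaneous TMP and TMPC tumours each had less RNA of many TNF ligands and receptors than TM tumours. In TMP against TM, 9 members were lower and 1 was higher among 30 tested, at an adjusted p under 0.05 in edgeR's quasi-likelihood test, and of all 15277 genes tested 13.4% were lower and 14.3% higher (27.7% in either direction). In TMPC against TM, 12 members were lower and 0 higher among 30, against 17.8% and 18% of all genes (35.8% in either direction). Of 12 ligands tested, 4 were lower in TMP and 7 in TMPC, and of 18 receptors tested, 5 in each. Without TM replicate 2 these were 4 and 5 ligands and 6 and 7 receptors. All TMP libraries were below all TM libraries for 12 members and above for 2, beside 22.5% and 28.2% of all genes. For TMPC these numbers were 12 and 2 as well, beside 21.6% and 25.9%. Both comparisons share the 3 TM libraries. The median log2 fold change of the tested members was −1.52 in TMP and −2.02 in TMPC, beside −0.07 for all genes in both. Tnfrsf8 and Tnfrsf17 were too low to be tested. In bulk tissue, fewer cells of a type and less RNA per cell cannot be told apart.

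These counts rested on the libraries to different degrees. Without TM replicate 2, 10 members were lower and 3 higher in TMP (all genes: 15.1% and 16%), and 12 were lower and 1 higher in TMPC (20.1% and 20.7%), while the members' median moved to −0.56 and −1.07. Of the calls made with all libraries, 9 of 10 and 10 of 12 passed without it. Leaving out TMP replicate 1, 2 or 3 left 2, 5 or 3 lower members, and the share of all genes called in either direction was then 9.8%, 13.5% or 11.9%. Leaving out TMPC replicate 2 or 3 left 7 lower members each, beside 21.7% and 23.9% of all genes called. Tnfrsf11a and Tnfsf12 passed in TMP under every alternative listed in the processing section, and Tnf, Tnfrsf11a, Tnfrsf13b, Tnfrsf1b, Tnfsf12 and Tnfsf13b did so in TMPC. Macrophage and monocyte markers moved the same way: their sum was 3940 to 8250 CPM in TM, 885 to 1660 in TMP and 968 to 1740 in TMPC, 9 and 10 of 12 were lower, and none was at 0 in any library. Interferon response genes were lower as well (12 of 13 in each comparison), summing to 1000, 10400 and 1030 CPM in TM, 210 to 370 in TMP and 224 to 267 in TMPC. Without TM replicate 2, 8 and 9 macrophage markers and 9 and 10 interferon response genes were lower. NK and cytotoxic cell markers were lower too, 8 of 9 in each comparison, and 3 and 7 of 9 once TM replicate 2 was omitted. They summed to 22.1, 453 and 35.2 CPM in TM, 1.2 to 7.02 in TMP and 2.51 to 19.2 in TMPC. Of 6 neutrophil markers tested, 5 and 6 were lower (4 and 5 with that library omitted), and the list summed to 146, 3630 and 209 CPM in TM, 24.1 to 46.7 in TMP and 9.2 to 34.8 in TMPC. All 6 cell division genes were higher in both, with and without that library, at 314 to 410 CPM in TM, 1260 to 1550 in TMP and 1630 to 1860 in TMPC. Their part in the results for the family was not tested.

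**Figure D3:**
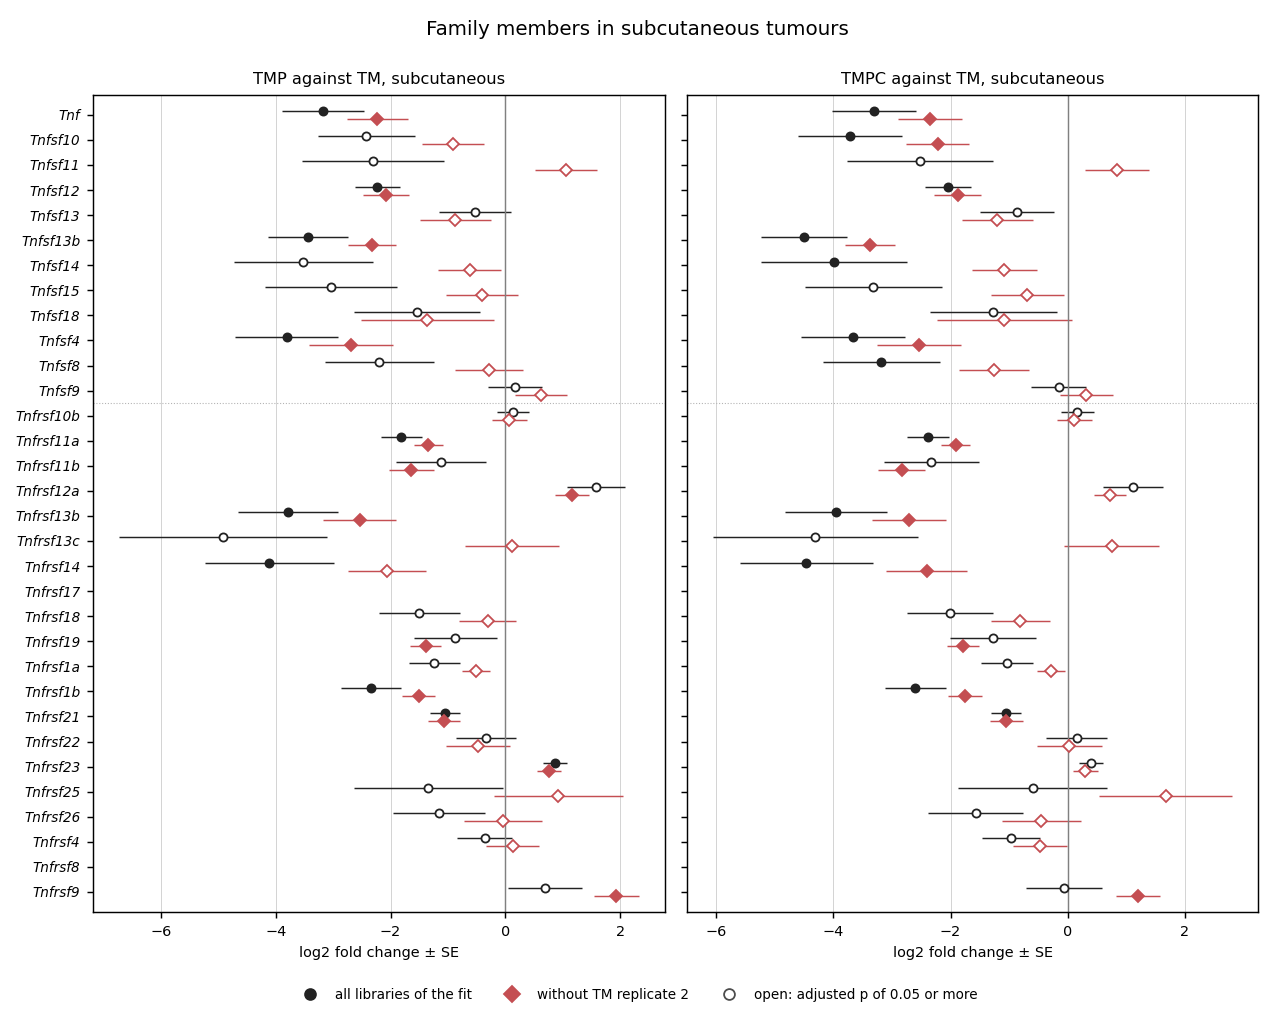
Log2 fold change with its standard error (bars) for each member in TMP against TM (left) and TMPC against TM (right), from all 9 subcutaneous libraries (black circles) and without TM replicate 2 (red diamonds); filled symbols have an adjusted p under 0.05, and ligands are above the dotted line. Without that library the estimates for Tnf, Tnfsf10, Tnfsf13b and Tnfsf4 move toward 0 but stay negative, and that for Tnfrsf9 becomes larger.

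Among the ligands that act on death-domain receptors, Tnf, the inflammatory cytokine that names the family, stood at 14.4, 54.2 and 15.4 CPM in TM, at 2.23, 4.61 and 2.89 in TMP and at 1.5, 2.29 and 5.12 in TMPC. Every TM library was above every TMP and TMPC library. On the log2 scale Tnf fell by 3.18 ± 0.71 (SE) in TMP (adjusted p = 0.0164, edgeR) and fell by 3.31 ± 0.72 in TMPC (adjusted p = 0.0104). The log2 fold changes without TM replicate 2 were −2.23 ± 0.53 and −2.35 ± 0.54, with adjusted p of 0.0172 and 0.0105. The call in TMP was lost without TMP replicate 1 or 3, with an adjusted p of up to 0.0677. Tnfsf10, the ligand TRAIL that can trigger apoptosis, stood at 36.9, 230 and 37.6 CPM in TM, 9.99, 23.8 and 26.4 in TMP and 5.13, 5.01 and 14.2 in TMPC. It too was highest in every TM library. The TMPC value fell by 3.72 ± 0.89 (adjusted p = 0.015), and its log2 fold change was −2.22 ± 0.54 when TM replicate 2 was left out (adjusted p = 0.0139). This call was lost without TMPC replicate 2 (adjusted p = 0.0583). The TMP value did not pass (log2 fold change −2.42 ± 0.84, adjusted p = 0.0641), although it did without TM replicate 1 or 3 (as low as 0.0484). It also passed with all 12 libraries in the edgeR fit (adjusted p = 0.0373).

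The ligands of B cell receptors and TWEAK came next. Tnfsf13b (BAFF), a survival factor for B cells made by myeloid cells, stood at 10.6, 47.3 and 11.4 CPM in TM, 2.17, 2.86 and 1.66 in TMP and 1.44, 0.653 and 1.13 in TMPC. The 3 groups did not overlap, TMPC being lowest. It fell by 3.44 ± 0.69 in TMP (adjusted p = 0.0115) and fell by 4.5 ± 0.73 in TMPC (adjusted p = 0.00352). Omitting TM replicate 2 gave −2.33 ± 0.42 and −3.37 ± 0.43 (adjusted p = 0.00601 and 0.00115). Its TMP call was lost without TMP replicate 1 (adjusted p = 0.0503). Tnfsf12 (TWEAK) stood at 6.51, 8.83 and 7.54 CPM in TM, 1.08, 2.03 and 1.94 in TMP and 2.42, 1.74 and 1.64 in TMPC. Here the TM libraries agreed closely, including replicate 2. Tnfsf12 fell by 2.23 ± 0.39 in TMP (adjusted p = 0.00721) and fell by 2.04 ± 0.39 in TMPC (adjusted p = 0.00623). Its values without TM replicate 2 were −2.08 ± 0.4 and −1.88 ± 0.4. Tnfsf13 (APRIL), the close relative next to it in the genome, did not pass, with log2 fold changes of −0.53 ± 0.62 and −0.87 ± 0.63 at 0.483 to 1.77 CPM in TM.

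Costimulatory ligands are shown by antigen-presenting cells or lymphocytes. Tnfsf4 (OX40 ligand), which costimulates T cells, stood at 1.2, 6 and 1.53 CPM in TM, 0.0602, 0.33 and 0.237 in TMP and 0.115, 0.381 and 0.205 in TMPC. In counts that was 23, 87 and 34 in TM against 1, 6 and 5 in TMP and 2, 7 and 4 in TMPC. It fell by 3.81 ± 0.9 in TMP (adjusted p = 0.0192) and fell by 3.67 ± 0.89 in TMPC (adjusted p = 0.0158). Leaving TM replicate 2 out gave −2.69 ± 0.73 and −2.54 ± 0.72 (adjusted p = 0.0265 and 0.0247). Each single TMP library was needed for the first call (adjusted p of up to 0.0708), and TMPC replicate 3 for the second (up to 0.0587). Tnfsf8 (CD30 ligand) stood at 1.2, 11.7 and 1.4 CPM in TM, 0.602, 1.32 and 1.33 in TMP and 0.865, 0.327 and 0.461 in TMPC. Tnfsf14 (LIGHT), a ligand of Tnfrsf14 and of the lymphotoxin receptor, stood at 0.99, 24.5 and 1.49, at 0.782, 0.549 and 1.14 and at 0.634, 0.381 and 0.768 CPM in the same order. For both, TM replicate 2 alone was far above the rest. In TMPC they fell by 3.18 ± 1 (Tnfsf8, adjusted p = 0.0382) and fell by 3.99 ± 1.24 (Tnfsf14, adjusted p = 0.0373). Neither passed once TM replicate 2 was omitted (−1.26 ± 0.6, adjusted p = 0.125, and −1.08 ± 0.56, adjusted p = 0.154), and neither passed when any single TMPC library was left out. In TMP the estimates were −2.2 ± 0.95 and −3.52 ± 1.21 and did not pass, although Tnfsf14 did without TM replicate 1 or 3. Tnfsf14 also passed there with all 12 libraries in the fit.

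Tnfsf11 (RANKL), which drives osteoclast formation and acts on Tnfrsf11a, stood at 1.56, 39.7 and 1.31 CPM in TM, 3.13, 2.86 and 3.13 in TMP and 4.5, 1.96 and 1.43 in TMPC. Its level in TM replicate 2 was thus far above every other subcutaneous library, while the other TM libraries were below all TMP libraries. It passed in neither comparison (−2.31 ± 1.24 and −2.52 ± 1.25), and without TM replicate 2 the estimates were positive (1.05 ± 0.54 and 0.84 ± 0.54, adjusted p = 0.171 and 0.239). The other 3 ligands did not pass either. Tnfsf15, a ligand of Tnfrsf25 made by endothelium and myeloid cells, ranged from 0.677 to 11.6 CPM in TM and from 0.218 to 0.722 in TMP and TMPC. Its log2 fold changes of −3.03 ± 1.15 and −3.32 ± 1.17 became −0.41 ± 0.62 and −0.69 ± 0.62 when TM replicate 2 was omitted. Tnfsf9, the ligand of Tnfrsf9, ranged from 1.67 to 4.12 CPM over the 9 libraries, with log2 fold changes of 0.16 ± 0.47 and −0.15 ± 0.47. Tnfsf18, the ligand of Tnfrsf18, ranged from 1.56 to 2.41 CPM in TM and ranged from 0.0512 to 1.74 CPM in the others.

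**Figure D4:**
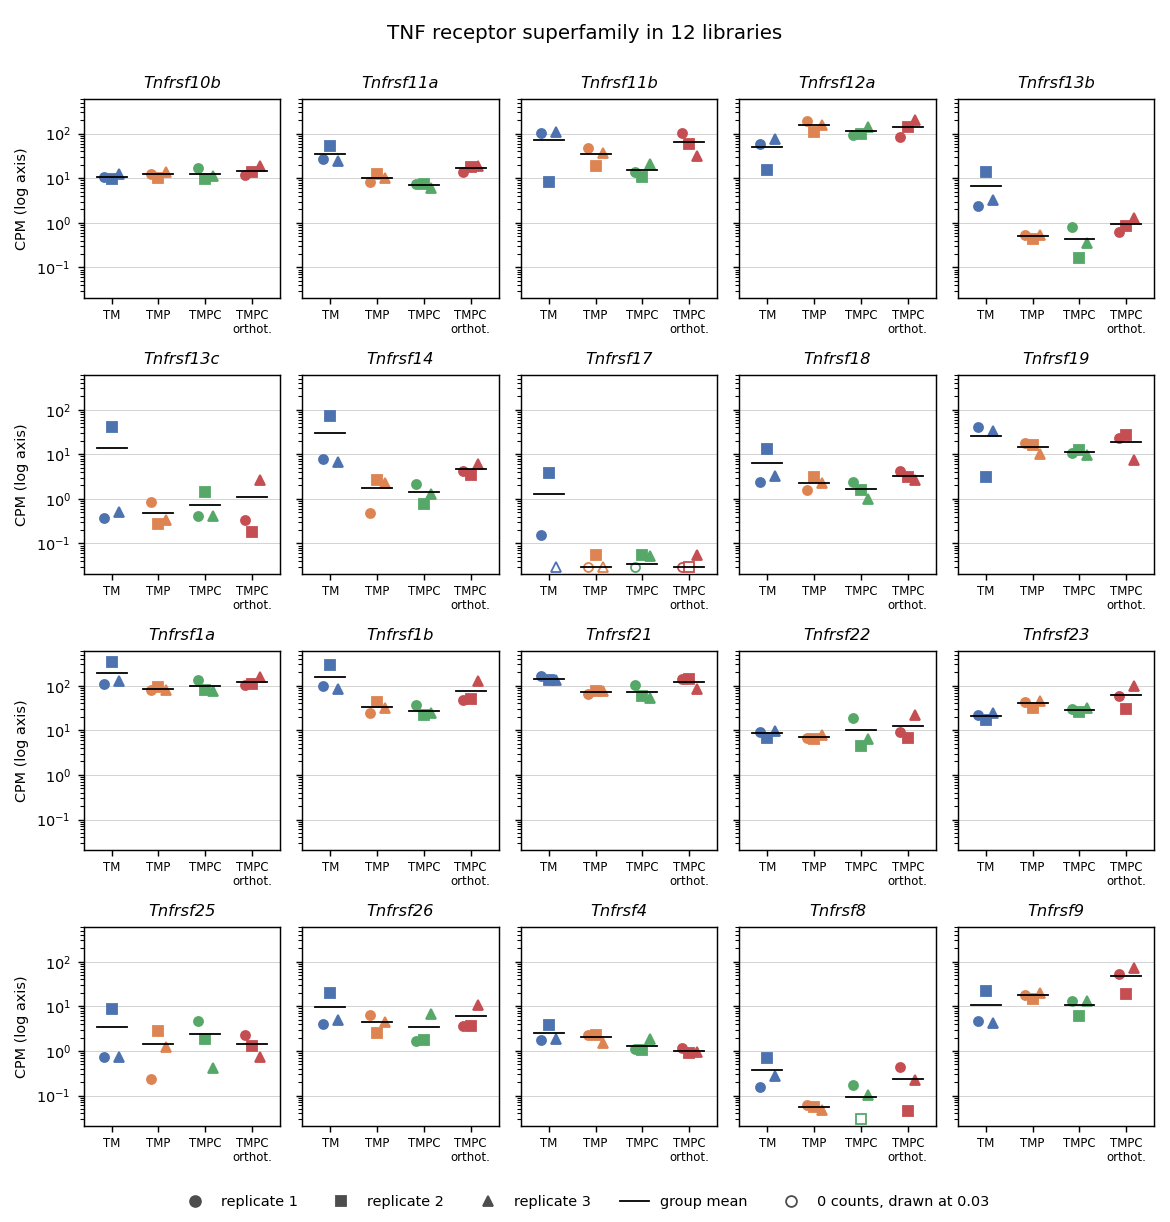
CPM (log axis) of the 20 receptors in each of the 12 libraries, with a symbol per replicate and a bar at the group mean; an open symbol has 0 counts. Tnfrsf11a, Tnfrsf1b and Tnfrsf21 are lower in all TMP and TMPC libraries than in any TM library, and Tnfrsf12a is higher.

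Among the receptors of TNF, Tnfrsf1b, which is made mainly by leukocytes and endothelium, stood at 98.9, 294 and 85.8 CPM in TM, 24, 43.7 and 31.3 in TMP and 36.7, 22.2 and 24.2 in TMPC. TM did not overlap with TMP or TMPC, while TMP and TMPC overlapped with each other. It fell by 2.34 ± 0.52 in TMP (adjusted p = 0.0156) and fell by 2.6 ± 0.52 in TMPC (adjusted p = 0.00781). With TM replicate 2 left out the log2 fold changes were −1.51 ± 0.29 and −1.76 ± 0.29 (adjusted p = 0.008 and 0.00298), and the TMP call was lost without TMP replicate 1 or 3 (adjusted p of up to 0.0632). Its promoter stretch above carries both interferon motifs. GAS was also found for Tnfrsf1a, Tnfrsf18, Tnfrsf19 and Tnfrsf25, which passed in neither comparison with all 9 libraries in edgeR. Any part of the motifs in these levels was not tested. Tnfrsf1a, found on nearly all cells, stood at 107, 333 and 126 CPM in TM, 78.4, 92.9 and 80.2 in TMP and 133, 80.9 and 77.4 in TMPC. It passed in neither comparison, with log2 fold changes of −1.24 ± 0.44 (adjusted p = 0.0697) and −1.04 ± 0.44 (adjusted p = 0.0988). These were −0.51 ± 0.24 and −0.29 ± 0.24 without TM replicate 2, while the TMP value passed without TM replicate 1 (adjusted p = 0.0396). The TMP value also passed in DESeq2 and with all 12 libraries in the edgeR fit (adjusted p as low as 0.0282).

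Of the other death-domain receptors, Tnfrsf21 stood at 162, 135 and 134 CPM in TM, 66.2, 74.4 and 75 in TMP and 106, 58.3 and 52.5 in TMPC. It fell by 1.05 ± 0.26 in each (adjusted p = 0.0223 and 0.0172), and the values without TM replicate 2 were −1.07 ± 0.28 and −1.05 ± 0.28. However, the TMP call was lost without TM replicate 1 or any single TMP library, and the TMPC call without TM replicate 1 or TMPC replicate 2 or 3 (adjusted p of up to 0.0976). Tnfrsf10b, the only mouse TRAIL receptor with a death domain, stayed between 9.45 and 16.8 CPM in the 9 libraries and did not pass, with log2 fold changes of 0.13 ± 0.28 and 0.16 ± 0.28. Tnfrsf25, a death receptor of lymphocytes, ranged from 0.241 to 8.76 CPM and did not pass. Tnfrsf23, one of the TRAIL decoys, was the single member to rise in TMP. Its values were 22.2, 17 and 24.6 CPM in TM, 44.2, 32 and 45.1 in TMP and 29.9, 25.4 and 32.4 in TMPC. The increase in TMP was 0.87 ± 0.21 (adjusted p = 0.0209), against 0.76 ± 0.21 when TM replicate 2 was omitted (adjusted p = 0.03), and was lost without TMP replicate 1 or 3 (up to 0.0839) and with all 12 libraries in the fit. In TMPC it was 0.4 ± 0.21 and did not pass. Tnfrsf22, its neighbour and near relative, did not pass in either (−0.34 ± 0.52 and 0.15 ± 0.52).

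The receptor of RANKL, Tnfrsf11a, stood at 27.2, 52.8 and 24.3 CPM in TM, 8.24, 12.6 and 10.2 in TMP and 7.32, 7.4 and 6.15 in TMPC. The 3 groups did not overlap, in descending order from TM to TMPC. It fell by 1.81 ± 0.35 in TMP (adjusted p = 0.0101) and fell by 2.39 ± 0.36 in TMPC (adjusted p = 0.00263), with −1.34 ± 0.25 and −1.91 ± 0.25 without TM replicate 2. Its decoy Tnfrsf11b (osteoprotegerin), secreted mainly by stromal and epithelial cells, showed the opposite pattern in that library: 102, 8.42 and 110 CPM in TM, 48.2, 19.2 and 36.9 in TMP and 13.6, 10.6 and 21.1 in TMPC. With all 9 libraries edgeR called it in neither (−1.12 ± 0.78 and −2.33 ± 0.81, the latter at adjusted p = 0.054). The TMPC value passed in DESeq2 (adjusted p = 0.00948) and with all 12 libraries in the edgeR fit (adjusted p = 0.0452). It was lower in both when TM replicate 2 was left out of the 9, at −1.64 ± 0.39 (adjusted p = 0.0169) and −2.83 ± 0.4 (adjusted p = 0.00166). Tnfrsf19, a TRAF-binding receptor of epithelial progenitors, showed the same: 41.8, 3.1 and 33.7 CPM in TM against 10.3 to 17.8 in TMP and 9.84 to 12.7 in TMPC, and no call with all libraries. It was lower in both when TM replicate 2 was left out (−1.39 ± 0.27 and −1.79 ± 0.27, adjusted p = 0.0079 and 0.00207).

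The TWEAK receptor Tnfrsf12a ran the other way from its ligand. It stood at 59.4, 15 and 74.2 CPM in TM, 192, 109 and 159 in TMP and 94.1, 97.7 and 144 in TMPC, so that every TMP and TMPC library was above every TM library. The difference did not pass with all libraries (1.58 ± 0.51, adjusted p = 0.051, in TMP and 1.12 ± 0.51, adjusted p = 0.115, in TMPC). Omitting TM replicate 2, it rose by 1.16 ± 0.29 in TMP (adjusted p = 0.0193) and was 0.72 ± 0.28 in TMPC (adjusted p = 0.0753). It also passed in TMP without TM replicate 3, with all 12 libraries in the fit, with DESeq2 and with a replicate block.

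Receptors of B and T lymphocytes made up the remaining calls. Tnfrsf13b (TACI), a receptor of BAFF and APRIL, stood at 2.45, 14.1 and 3.29 CPM in TM, 0.541, 0.439 and 0.522 in TMP and 0.807, 0.163 and 0.359 in TMPC. It fell by 3.78 ± 0.87 in TMP (adjusted p = 0.0175) and fell by 3.96 ± 0.87 in TMPC (adjusted p = 0.0111). The estimates without TM replicate 2 were −2.54 ± 0.63 and −2.71 ± 0.63 (adjusted p = 0.0193 and 0.0116). Each single TMP library was needed for the first call (up to 0.0685), and TMPC counts were only 14, 3 and 7. Tnfrsf14 (HVEM), a receptor of LIGHT, stood at 8.02, 73.1 and 6.77 CPM in TM, 0.481, 2.64 and 2.23 in TMP and 2.19, 0.762 and 1.28 in TMPC. It fell by 4.11 ± 1.12 (adjusted p = 0.0305) and fell by 4.46 ± 1.14 (adjusted p = 0.0191). Leaving out TM replicate 2, the values were −2.07 ± 0.68, which did not pass (adjusted p = 0.0507), and −2.41 ± 0.69, which did (0.0252). The TMP call also needed each single TMP library, and the TMPC call needed TMPC replicates 2 and 3, with adjusted p of up to 0.0962 and 0.0706. Beside these, T cell markers summed to 5.17 to 9.91 CPM in TMP and 6.37 to 8.2 in TMPC, with Cd3d at 0 in all 3 TMP libraries and Cd3e, Cd8b1 and Icos at 0 in all 3 TMPC libraries. B and plasma cell markers summed to 2.47 to 6.02 and 1.95 to 2.94 CPM, with Pax5 at 0 throughout both groups. Their part in these differences was not tested.

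Tnfrsf9 (4-1BB), an activation-induced costimulatory receptor, stood at 4.79, 22.4 and 4.33 CPM in TM, 18.3, 14.6 and 20.3 in TMP and 13, 5.99 and 13 in TMPC. TM replicates 1 and 3 were below every TMP and TMPC library, and TM replicate 2 above all of them. With all libraries the log2 fold changes were 0.69 ± 0.65 and −0.06 ± 0.65, and neither passed. When TM replicate 2 was left out, Tnfrsf9 rose by 1.93 ± 0.39 in TMP (adjusted p = 0.00968) and by 1.2 ± 0.38 in TMPC (adjusted p = 0.0368). The other lymphocyte receptors did not pass. Tnfrsf13c, the BAFF receptor of B cells, had 40.7 CPM in TM replicate 2 and between 0.275 and 1.42 CPM in the other 8 libraries. Tnfrsf18 (GITR) ranged from 2.34 to 13.1 CPM in TM and from 0.973 to 3.08 in TMP and TMPC. Tnfrsf4 (OX40) stayed between 1.03 and 3.86 CPM, and Tnfrsf26, a member of the chromosome 7 cluster, between 1.67 and 19.5 CPM.

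Between TMPC and TMP tumours under the skin no member passed the test. Of 30 members 0 passed in edgeR and 0 had an unadjusted p under 0.05, while 0 of all 15277 genes passed (0%) and 3.04% had an unadjusted p under 0.05. DESeq2 called 0 members and 17 genes in all. All TMPC libraries were below all TMP libraries for 3 members (Tnfrsf11a, Tnfrsf9 and Tnfsf13b) and above for 0, beside 6.28% and 6.18% of all genes. The log2 fold changes were −0.58 ± 0.34 for Tnfrsf11a, −0.74 ± 0.65 for Tnfrsf9 and −1.05 ± 0.66 for Tnfsf13b, and the median over members was −0.32 beside 0.01 for all genes. This does not show that the groups are alike: the standard errors of the 30 estimates ran from 0.21 to 1.64.

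Orthotopic TMPC tumours had more RNA of many members than subcutaneous TMPC tumours. Among 29 tested, 9 were higher and 0 lower in edgeR, while 14% of all 15123 genes tested were higher and 13.8% lower (27.8% in either direction). The 9 were 4 of 12 ligands (Tnfsf4, Tnfsf8, Tnfsf10 and Tnfsf13b) and 5 of 17 receptors (Tnfrsf11a, Tnfrsf11b, Tnfrsf14, Tnfrsf1b and Tnfrsf9). The log2 fold change was above 0 for 12 of 12 ligands and 15 of 17 receptors, with a median of 1.13 over members and 0.05 over all genes. All orthotopic libraries were above all subcutaneous ones for 15 members, beside 22.3% of all genes, and below for 0, beside 26.5%. Tnfrsf8, Tnfrsf13c and Tnfrsf17 were not tested. The subcutaneous TMPC libraries are those of the comparison with TM above, so a high or low value there enters both.

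These calls were sensitive to single libraries. Without orthotopic replicate 3, 8 members were higher (all genes: 16.5%), and 6 of the 9 passed again. Without orthotopic replicate 1 or 2 only 1 member passed each time, beside 7.98% and 2.51% of all genes called in either direction. Without subcutaneous TMPC replicate 1, 2 or 3 the number was 5, 0 and 3, beside 22.2%, 10.5% and 13.3% of all genes. All of these shares were below the 27.8% called with all libraries. No call passed under every alternative. Interferon response genes also differed: 10 of 13 were higher, summing to 1090, 1080 and 702 CPM against 224 to 267, and none was at 0. Macrophage markers summed to 1870 to 2790 CPM against 968 to 1740, and 2 of 12 (Cd14 and Csf1r) were higher, beside 14% of all genes. Of the markers tested, 3 of 7 epithelial, 2 of 4 B and plasma cell and 2 of 5 NK and cytotoxic ones were higher. So were 0 of 3 for T cells and 0 of 6 for dendritic cells. With orthotopic replicate 3 omitted these 5 lists had 4 of 7, 2 of 4, 1 of 5, 1 of 4 and 2 of 7 higher. The 6 cell division genes were all lower, with and without orthotopic replicate 3, summing to 488, 498 and 813 CPM against 1630 to 1860. All 11 gastric epithelial markers were higher, 4 of them (Gkn2, Pgc, Atp4b and Cldn18) being at 0 in all 3 subcutaneous TMPC libraries, and the part of these lists in the results for the family was not tested.

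**Figure D5:**
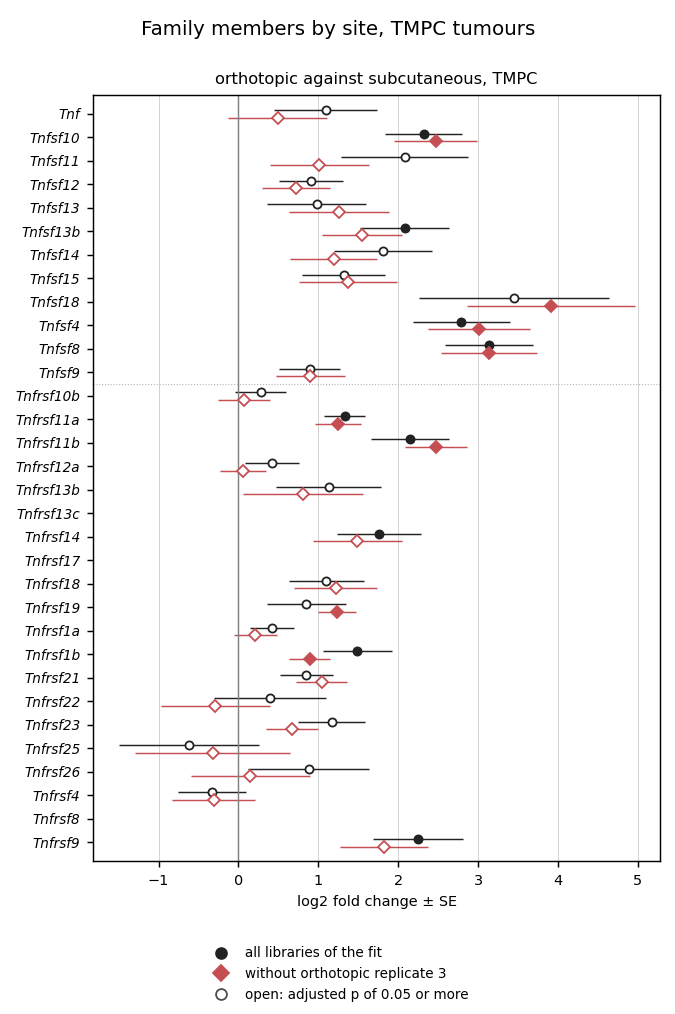
Log2 fold change with its standard error (bars) of each member in orthotopic against subcutaneous TMPC tumours, from all 6 libraries (black circles) and without orthotopic replicate 3 (red diamonds); filled symbols have an adjusted p under 0.05, and ligands are above the dotted line. All 12 ligands lie above 0 in both fits, and Tnfsf4, Tnfsf8, Tnfsf10, Tnfrsf11a, Tnfrsf11b and Tnfrsf1b are filled in both.

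Among the ligands, Tnfsf8 stood at 6.09, 3.3 and 4.57 CPM in orthotopic tumours and at 0.865, 0.327 and 0.461 in subcutaneous ones. The rise was 3.14 ± 0.55 (adjusted p = 0.0137), and 3.14 ± 0.6 without orthotopic replicate 3 (adjusted p = 0.0165). Tnfsf4 stood at 2.21, 1.49 and 1.02 CPM against 0.115, 0.381 and 0.205. It rose by 2.79 ± 0.61 (adjusted p = 0.0221), or by 3.01 ± 0.64 without that library (adjusted p = 0.0211). For both costimulatory ligands the groups did not overlap, but the Tnfsf8 call was lost without orthotopic replicate 1 or 2 or subcutaneous replicate 2 (adjusted p of up to 0.0517), and the Tnfsf4 call without any single library but orthotopic replicate 3 (up to 0.0777). Tnfsf10 stood at 41.4, 45.6 and 30 CPM against 5.13, 5.01 and 14.2, and rose by 2.32 ± 0.48 (adjusted p = 0.0195), or by 2.47 ± 0.52 without orthotopic replicate 3 (adjusted p = 0.0206). It was lost without orthotopic replicate 1 or 2 or subcutaneous replicate 2 (up to 0.0664). Tnfsf13b stood at 2.81, 3.26 and 7 CPM against 1.44, 0.653 and 1.13. Its rise of 2.08 ± 0.56 (adjusted p = 0.0377) was 1.55 ± 0.5 and no longer passed without orthotopic replicate 3 (adjusted p = 0.0652), and it was lost on leaving out any single library.

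Several ligands were higher in all orthotopic libraries without passing. Tnfsf18, the GITR ligand, which endothelium and antigen-presenting cells make, had the largest estimate, 3.45 ± 1.19 (adjusted p = 0.0703). Its values were 9.75, 15.4 and 2.03 CPM against 0.807, 1.74 and 0.0512, and without orthotopic replicate 3 it passed (3.91 ± 1.05, adjusted p = 0.0386). Tnfsf14 (1.58, 1.04 and 3.44 CPM against 0.634, 0.381 and 0.768), Tnfsf12 (2.64, 3.48 and 4.29 against 2.42, 1.74 and 1.64), Tnfsf15 and Tnfsf9 had estimates between 0.89 and 1.81. Tnfsf14 passed in DESeq2 (adjusted p = 0.0465). Tnf itself did not pass: 3.32, 4.75 and 10.2 CPM against 1.5, 2.29 and 5.12 gave 1.09 ± 0.65 (adjusted p = 0.241) and the groups overlapped. Tnfsf11 stood at 6.43, 3.71 and 21.6 CPM against 4.5, 1.96 and 1.43, with its highest value in orthotopic replicate 3. In edgeR it did not pass with that library (2.08 ± 0.8, adjusted p = 0.0931) or without it (1.01 ± 0.62, adjusted p = 0.26). In DESeq2 with all libraries Tnfsf11 passed (adjusted p = 0.0276).

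Among the receptors, the RANK axis was higher as receptor and decoy. Tnfrsf11a stood at 13.8, 18.1 and 18.5 CPM against 7.32, 7.4 and 6.15, and rose by 1.33 ± 0.26 (adjusted p = 0.0174), or 1.25 ± 0.29 without orthotopic replicate 3 (adjusted p = 0.0254). Tnfrsf11b stood at 102, 58.9 and 31 CPM against 13.6, 10.6 and 21.1, and rose by 2.15 ± 0.49 (adjusted p = 0.0244), or 2.47 ± 0.39 (adjusted p = 0.0105). In both cases the groups did not overlap. The Tnfrsf11a call was lost without orthotopic replicate 2 or subcutaneous replicate 2 or 3 (up to 0.0718), and the Tnfrsf11b call without orthotopic replicate 1 or 2 or subcutaneous replicate 1 or 2 (up to 0.0904). Tnfrsf9 stood at 53.4, 18.6 and 72.8 CPM against 13, 5.99 and 13, the highest values of this receptor in the series being orthotopic replicates 1 and 3. It rose by 2.25 ± 0.56 (adjusted p = 0.0308), and the estimate of 1.82 ± 0.55 without orthotopic replicate 3 did not pass (adjusted p = 0.0547). It was also lost without orthotopic replicate 1 or any single subcutaneous library (up to 0.094). Its promoter is the one shown with overlapping kappaB matches. A kappaB match was also found for Tnfrsf25, which did not pass, and for Tnfrsf8, which was not tested.

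Tnfrsf1b stood at 47.7, 51.1 and 125 CPM against 36.7, 22.2 and 24.2. The third orthotopic library, with its higher neutrophil and liver markers, was more than the other 2 together, and the estimate went from 1.49 ± 0.43 (adjusted p = 0.0445) to 0.89 ± 0.26 without it (adjusted p = 0.049). Leaving out any other single library ended the call (up to 0.139). Tnfrsf14 stood at 4.22, 3.39 and 6.15 CPM against 2.19, 0.762 and 1.28, and rose by 1.76 ± 0.53 at an adjusted p of 0.0495, beside the threshold. It passed without subcutaneous replicate 1 but without no other single library (up to 0.143). Without orthotopic replicate 3 the value was 1.49 ± 0.56 (adjusted p = 0.0942). Tnfrsf1a did not pass (104, 111 and 157 CPM against 133, 80.9 and 77.4; 0.42 ± 0.27), nor did Tnfrsf12a (86, 138 and 206 against 94.1, 97.7 and 144; 0.42 ± 0.34) or Tnfrsf13b (1.13 ± 0.66). Tnfrsf21 stood at 142, 144 and 86 CPM against 106, 58.3 and 52.5 (0.85 ± 0.33, adjusted p = 0.1), and Tnfrsf23 at 59.2, 30.1 and 99.4 against 29.9, 25.4 and 32.4 (1.17 ± 0.42, adjusted p = 0.0766). With orthotopic replicate 3 left out these became 1.04 ± 0.32 (adjusted p = 0.0559) and 0.67 ± 0.33 (adjusted p = 0.168). Tnfrsf23 passed in DESeq2 and with all 12 libraries in the edgeR fit (adjusted p as low as 0.0325). Tnfrsf19 passed only without orthotopic replicate 3 (1.23 ± 0.24, adjusted p = 0.0168). Of the 17 receptors tested, the estimates of Tnfrsf25 and Tnfrsf4 alone were below 0 (−0.62 ± 0.88 and −0.33 ± 0.43).

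Members of the superfamily that carry other symbols were followed as a list of 14 genes. In TMP and TMPC against TM, 2 and 3 of 10 tested were lower and 0 higher. Of all genes, 13.4% and 17.8% were lower and 14.3% and 18% higher. Ltb, the membrane anchor of lymphotoxin, stood at 14.1, 168 and 14.9 CPM in TM, 0.241, 1.54 and 1.99 in TMP and 0.98, 0.599 and 0.871 in TMPC, and fell by 5.77 ± 1.24 (adjusted p = 0.0145) and fell by 6.41 ± 1.29 (adjusted p = 0.00786). The estimates with TM replicate 2 omitted were −3.54 ± 0.68 (adjusted p = 0.00805) and −4.16 ± 0.7 (adjusted p = 0.0032). Fasl, the ligand of the death receptor Fas, stood at 0.677, 9.04 and 0.722 CPM in TM and at no more than 0.0948 in TMP and TMPC, where counts were too few for a stable fold. Fas itself stood at 11.3, 49.3 and 10.7 CPM in TM, 6.8, 9.78 and 7.4 in TMP and 3.98, 6.8 and 5.17 in TMPC. Every TM library was above the others, and TM replicate 2 far above. Fas fell by 2.24 ± 0.63 in TMPC (adjusted p = 0.0262), or by 1.07 ± 0.31 with TM replicate 2 omitted (adjusted p = 0.0272), and did not pass in TMP (−1.64 ± 0.62, adjusted p = 0.0788). In orthotopic tumours Ltb and Fas were higher, 2 of 9 tested: Fas at 18.8, 12.1 and 17.1 CPM against 3.98, 6.8 and 5.17 (1.66 ± 0.34, adjusted p = 0.0195) and Ltb at 1.62, 3.44 and 13.2 against 0.98, 0.599 and 0.871 (2.95 ± 0.85, adjusted p = 0.0448). Of all genes, 14% were higher and 13.8% lower at the site. With orthotopic replicate 3 omitted Fas passed (1.6 ± 0.38, adjusted p = 0.0283) and Ltb did not (1.67 ± 0.54, adjusted p = 0.0644). Leaving out TM replicate 2, 3 and 4 of 10 tested were lower and 0 higher. Of all genes, 15.1% and 20.1% were then lower and 16% and 20.7% higher. Leaving out orthotopic replicate 3, 1 of 9 was higher and 1 lower, beside 16.5% and 14% of all genes. The lymphotoxin receptor Ltbr, by contrast, stayed between 82.1 and 108 CPM in all 12 libraries.

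Of 22 adaptor genes, which link the receptors to kinases and caspases, 1 was higher and 3 lower in TMP, 3 higher and 5 lower in TMPC, and 2 higher and 2 lower in orthotopic tumours. Beside these and the lists that follow stand the shares of all genes given above: 14.3% higher and 13.4% lower in TMP, 18% and 17.8% in TMPC, and 14% and 13.8% in orthotopic tumours. With TM replicate 2 omitted the shares were 16% higher and 15.1% lower in TMP, and 20.7% and 20.1% in TMPC. With orthotopic replicate 3 omitted they were 16.5% and 14% at the site. Rnf31, the catalytic subunit of the linear ubiquitin ligase, was lower in TMP (−1.57 ± 0.34, adjusted p = 0.0153) and TMPC (−1.84 ± 0.35, adjusted p = 0.00617) and higher in orthotopic tumours (0.86 ± 0.19, adjusted p = 0.0212). Ube2n, an enzyme that builds lysine-linked ubiquitin chains on TRAF proteins, was higher in TMP (0.66 ± 0.13, adjusted p = 0.0106) and TMPC (0.79 ± 0.13, adjusted p = 0.00379). Both genes also passed in these comparisons with the libraries that stood apart omitted. Of 15 death effectors, 3 were higher and 3 lower in both subcutaneous comparisons, and 4 were higher and 0 lower in orthotopic tumours. Cflar, an inhibitor of caspase activation, rose by 1.26 ± 0.19 in orthotopic tumours (adjusted p = 0.0105), or by 1.07 ± 0.15 with orthotopic replicate 3 omitted (adjusted p = 0.00908). Omitting TM replicate 2 gave 3 adaptors higher and 2 lower in TMP, 5 and 4 in TMPC, and 4 death effectors higher and 3 lower in each. Omitting orthotopic replicate 3 gave 1 adaptor higher and 2 lower, and 2 death effectors higher and 1 lower.

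Of 15 NF-kB subunits, inhibitors and kinases, 3 were lower in TMP and 7 in TMPC with 0 higher, and 3 were higher in orthotopic tumours with 0 lower. Nfkbiz, an inducible nuclear regulator of NF-kB, fell by 1.68 ± 0.33 (adjusted p = 0.0105) and fell by 2.43 ± 0.34 (adjusted p = 0.00206) and rose by 1.45 ± 0.36 in orthotopic tumours (adjusted p = 0.0299). The falls also passed with TM replicate 2 omitted, and the rise did not pass with orthotopic replicate 3 omitted (1.35 ± 0.41, adjusted p = 0.0531). Omitting TM replicate 2 left 1 lower in TMP and 5 lower with 1 higher in TMPC, and omitting orthotopic replicate 3 left 2 higher. Of 20 genes known as NF-kB targets, 6 were lower in TMP and 9 in TMPC with 0 higher, and 4 of 19 tested were higher in orthotopic tumours. Icam1, an adhesion molecule for leukocytes, fell by 2.55 ± 0.59 (adjusted p = 0.0181) and fell by 3.3 ± 0.61 (adjusted p = 0.00577), or by 1.91 ± 0.49 and by 2.65 ± 0.5 with TM replicate 2 omitted (adjusted p = 0.0223 and 0.0051). Leaving out TM replicate 2, the targets lower were 4 and 8 and those higher 1 and 1, and the list's median went from −2.37 and −2.96 to −0.07 and −0.75. Without orthotopic replicate 3, 4 of 20 targets were higher and 1 lower, beside 16.5% and 14% of all genes. Of the 5 genes for ligand shedding and processing, Adam17, the sheddase of TNF, was lower in TMP (−0.63 ± 0.19, adjusted p = 0.0394) but did not pass there with TM replicate 2 omitted (−0.41 ± 0.14, adjusted p = 0.0538), and no other passed in any comparison with all libraries. Omitting TM replicate 2, 1 of the 5 other than Adam17 was lower in TMP, 1 was lower in TMPC and 0 were higher. Omitting orthotopic replicate 3, 0 passed at the site.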

How the data were processed

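The authors' deposited tables give whole-number counts per gene and library, and beside them normalized counts (a signal of counts divided by a DESeq2 size factor), log2 fold changes, their standard errors and test statistics (scores) and p-values. Per the submitters' processing notes, STAR 2.6.0, the mouse build mm10 and DESeq2 were used; no counter, annotation or strand setting is stated in the sources used here. Only counts were analysed. In the subcutaneous table symbols no longer fit their counts at entry 12291 and after (12131 of 24421 entries), so symbols were taken by position from the other table; 24419 of 24419 genes then matched between count and normalized count (tolerance 0.01 reads), against 14200 as deposited. Of the deposited symbols, 27 read as dates. The 2 single-cell samples were not analysed here.

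CPM used TMM factors over 12 libraries. Tests were edgeR 4.0.16 quasi-likelihood (R 4.3.3, filterByExpr, Benjamini-Hochberg over all genes, threshold 0.05), with the 9 subcutaneous libraries in 1 fit and the 6 TMPC libraries in another. The edgeR test gives no standard error, so each SE is the absolute log2 fold change divided by the square root of the test's F statistic. For genes with few counts it is only a rough measure. The code was tested on simulated data: every changed gene that was called had the right sign, but most of the smaller changes were not called. Changes were planted only in genes with a mean above 5 CPM, and no simulated library stood apart. The simulation therefore does not cover members with lower counts or the libraries that stood apart here. Alternatives were DESeq2 1.42.0, RLE factors, other filters, other sets of libraries, a replicate block and leaving out each library; the fits without both libraries that stood apart were chosen after seeing the data. Exon lengths and positions came from GENCODE vM21, promoters from RefSeq. All members may be named; values by library are given for members past the threshold in any comparison, for Tnf and its receptors, and for the 5 ligands and 5 receptors highest in mean CPM, and of each other list at most the 3 genes with the smallest adjusted p. Library values of members outside this rule (such as Tnfrsf19 and Tnfsf18), and Fasl and Ltbr, were added after their values were seen. Members and lists were chosen with earlier results of these data known.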

Additional observations from a re-analysis of the deposited data

How the results depend on the processing

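No member passed in TMPC against TMP under any setting. In TMP against TM, the 1 higher member became 2 with DESeq2 and 2 without both libraries that stood apart (chosen after seeing the data), and leaving out single libraries gave 0 to 3; the 9 lower members became 2 to 13. In TMPC against TM, leaving out single libraries gave 0 to 1 higher and 7 to 14 lower members. In orthotopic against subcutaneous TMPC, the 9 higher members became 0 to 8 on leaving out single libraries. Over those fits the share of all genes called ran from 9.8% to 31.2% in TMP and from 21.7% to 40.8% in TMPC against TM. At the site it ran from 2.51% to 30.6%. RLE factors, no filter on low counts, a mean of at least 1 CPM and all 12 libraries in the fit kept each of these member counts within 1.5 times. The one estimate to change sign and pass was Tnfrsf9 in TMPC against TM, −0.06 with all libraries and from −0.41 to 1.2 on leaving out single libraries, the latter without TM replicate 2. The cause was not tested. Over all genes, leaving out TMP replicate 1 took the calls in TMP against TM from 4239 to 1550, TMPC replicate 2 those in TMPC against TM from 5469 to 3414, and orthotopic replicate 2 those at the site from 4204 to 387; the 2 groups alone gave 3536 in TMPC against TM, and DESeq2 17 in TMPC against TMP. DESeq2 moved the median over all genes to −0.15 in TMP against TM and 0.15 in orthotopic tumours.

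Whether the replicate numbers pair the samples was left unsettled. Correlations of same-numbered deviations were 0.231, 0.275 and 0.084 in TMP and TM, and 0.066, −0.07 and −0.035 in orthotopic and subcutaneous TMPC. They were −0.129, 0.106 and 0.264 in TMPC and TM, and −0.226, 0.201 and −0.058 in TMPC and TMP. Each TMP library correlated best with the TM library of its own number, but TM replicate 3 did so with TMP replicate 1 (0.217). In the other comparisons not every sample correlated best with its own number. With the replicate number as a block, calls at the site fell to 1777 genes, 11.8% of all genes tested. The share of all genes called with the block was 19.8% in TMP and 28.1% in TMPC against TM. Beside these shares, 2 members were higher and 8 lower in TMP, 9 lower in TMPC, 0 passed between them and 3 were higher in orthotopic tumours.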
